A study of Homo sapiens with 4 samples.

Results

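The mitochondrially encoded transcripts are the RNAs made from the small circular genome inside mitochondria. They were taken here as every gene on chromosome M whose symbol starts with MT-, which gave 37 of the 58735 genes in the deposited expression table. The set holds 13 mRNAs, 2 rRNAs and 22 tRNAs. By annotation, 28 of the 37 genes are copied from the heavy strand of the mitochondrial DNA (12 mRNAs, both rRNAs and 14 tRNAs) and 9 from the light strand (MT-ND6 and 8 tRNAs). Levels come from RNA sequencing of HCT116, an established human colorectal carcinoma line, in 4 libraries. In 2 libraries, labelled sgID3 with the genotype ID3 knockout, the cells carried a CRISPR guide against ID3, an inhibitor of helix-loop-helix transcription factors. The other 2, labelled sgCtrl with the genotype wildtype, had a control guide. The comparison of these groups addresses what changes in the cells when ID3 is targeted, and nothing in the labels singles out mitochondria. The labels are silent on whether a group's libraries are separate cultures, clones or pools, so the p-values cover the spread among these samples alone, and that spread may be technical.

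Both strands of mitochondrial DNA are copied from promoters in the control region into long transcripts that run through many genes. The tRNAs lie between most of the mRNAs and rRNAs like punctuation, and cutting them out at both ends frees the RNAs on either side. Most of the freed mRNAs then receive a short poly(A) tail, the rRNAs get a shorter one, and mature tRNAs end in CCA. The mRNAs encode core subunits of respiratory complexes I, III and IV and of ATP synthase, while all proteins that copy, cut, modify and translate these RNAs are encoded in the nucleus. The heavy-strand promoter stands just before MT-TF, and the rRNAs follow, so distance from MT-TF is distance along the heavy-strand transcript.

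Mitochondrial genes took a large part of each library. FPKM, the deposited unit, which counts fragments by exon length and library size, could be turned back into whole reads, which summed to between 15349866 and 16258079 per library over all genes. Of these, the 37 genes held 8.32% and 8.15% in the sgCtrl libraries and 9.18% and 7.94% in the sgID3 libraries. The sgID3 libraries lay on both sides of the sgCtrl libraries, and the mean difference of 0.32 percentage points was within the spread of the sgID3 pair (8.24% ± 0.121 against 8.56% ± 0.88, SD, n = 2 each). Counting error at this depth was at most 0.0144 percentage points to either side (95% Wilson interval, which covers counting error only). The summed mitochondrial level thus gave no detectable difference, while its parts did differ in makeup.

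As the check of the targeted gene, ID3 measured 84.5 and 81.5 FPKM in sgCtrl against 37.98 and 41.6 FPKM in sgID3, a log2 fold change of -1.04 ± 0.06 (SE; limma, adjusted p = 0.0047, and 0.0458 to 0.0627 with any 1 library left out). Of 7 epithelial markers, 6 had a mean of at least 1 FPKM and VIL1 did not. All 3 endothelial and all 5 leukocyte markers were under 1 FPKM, and of 5 fibroblast markers only COL1A1 was above it (4.38 to 5.92 FPKM). Differences between groups were tested with limma on log2(FPKM + 1) over the 13608 genes whose mean reached 1 FPKM, and a call means a Benjamini-Hochberg adjusted p under 0.05. Among all tested genes, 21.2% were called, 12.3% (1679) higher and 8.87% (1207) lower in sgID3. Scaling to the summed reads turned this split to 1186 higher and 1547 lower, and quantile normalization to 1221 and 1294. Most calls were lost with 3 libraries: leaving out sgCtrl replicate 1 left 399 genes and leaving out sgID3 replicate 2 left 56. Without sgCtrl replicate 2 or without sgID3 replicate 1, limma called 0 genes, with 3993 and 3589 genes at an unadjusted p under 0.05.

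Both rRNAs of the mitochondrial ribosome were at higher levels in the sgID3 libraries, and MT-RNR1 passed the test. MT-RNR1, the 12S rRNA of the small subunit (ENSG00000211459, chromosome M, 648 to 1601, plus strand, GRCh38), lies next to the promoters. It measured 2084 and 1552 FPKM in the sgCtrl libraries and 4013 and 3547 FPKM in the sgID3 libraries. The lower sgID3 library stood well above the higher sgCtrl library. The level was 2.08 times as high (1818 ± 376 against 3780.3 ± 329.6 FPKM, SD, n = 2 each), a log2 fold change of 1.07 ± 0.17 (SE, 95% interval 0.63 to 1.51, limma adjusted p = 0.0191). With any 1 library left out, this fold change stayed between 0.86 and 1.28, with adjusted p of 0.0516 to 0.111, so the call needed all 4 libraries. Over all alternatives tried its adjusted p ranged from 3.11e-11 to 0.276.

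MT-RNR2, the 16S rRNA of the large subunit (ENSG00000210082, chromosome M, 1671 to 3229, plus strand), follows downstream. Its values were 5628 and 4573 FPKM in sgCtrl and 8080.1 and 7079.7 FPKM in sgID3. Again both sgID3 libraries were above both sgCtrl libraries. The ratio of means was 1.49 and the log2 fold change 0.58 ± 0.15 (SE, 95% interval 0.18 to 0.98), which did not pass limma (adjusted p = 0.0594). limma-voom on the worked-back reads did call it (log2 fold change 0.51, adjusted p = 1.99e-07, range over all alternatives 1.99e-07 to 0.754), and quantile normalization gave 0.30. limma thus called 1 of the 2 rRNAs, and voom, which called 14.4% of all tested genes higher, called both. MT-RNR1 stood at 0.370 and 0.339 of the MT-RNR2 level in sgCtrl and at 0.497 and 0.501 of it in sgID3. The balance between the small and large subunit rRNAs was thus shifted towards MT-RNR1 in both sgID3 libraries.

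The libraries were made by capture on poly-T beads, which takes up RNA by its poly(A) stretch, so an rRNA level here is that of the captured molecules. Whether tails differed between the groups was not tested. Replicates also differed at these genes: replicate 2 lay below replicate 1 by 0.43 (log2) at MT-RNR1 in sgCtrl and by 0.18 in sgID3, and at MT-RNR2 by 0.30 and 0.19. The group difference exceeded these gaps at both genes.

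**Figure D1:**
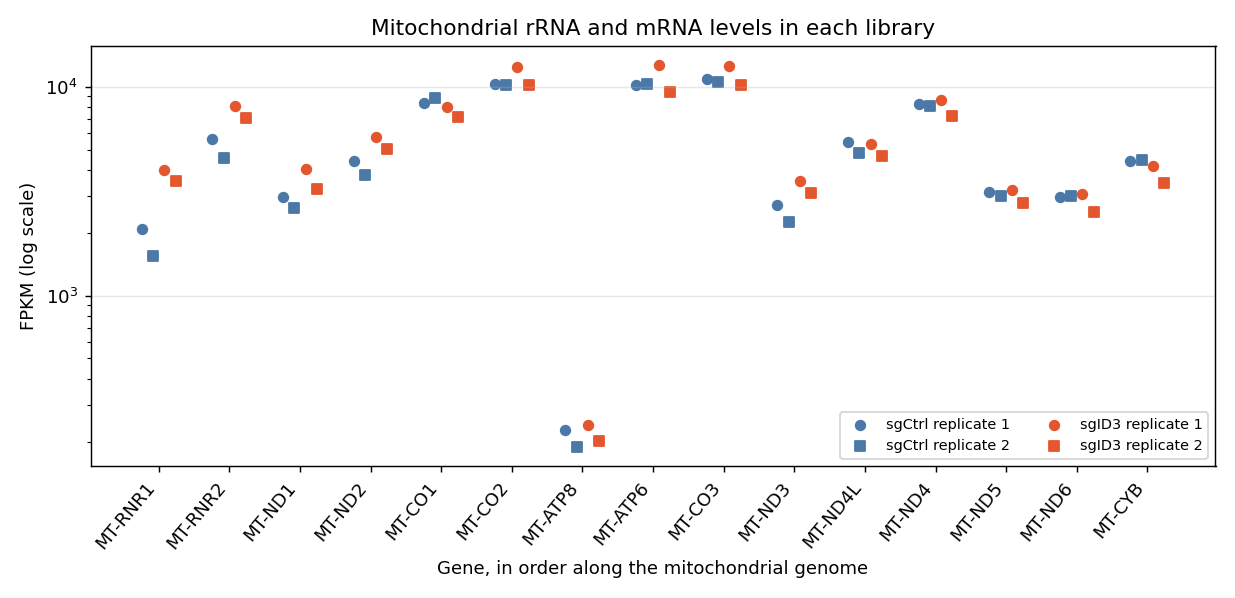
FPKM (log axis) of the 2 mitochondrial rRNAs and 13 mRNAs in order along the genome, 1 point per library, blue for sgCtrl and orange for sgID3, circles for replicate 1 and squares for replicate 2. The orange points of MT-RNR1 (4013 and 3547) sit clear of the blue ones (2084 and 1552), while at MT-CO2, MT-ATP6 and MT-CO3 the blue points lie between the orange ones.

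None of the 13 mRNAs passed limma, and 3 of them (MT-ND1, MT-ND2 and MT-ND3) had an unadjusted p under 0.05. Their median log2 fold change was 0.07 (range -0.22 to 0.42), beside 0.03 over all tested genes. Scaled to the summed reads, the mRNA median was 0.0047, beside -0.03 over all tested genes. The sgID3 libraries were both above the sgCtrl libraries at 3 mRNAs and both below at 2, with overlap at 8. Over all tested genes, groups did not overlap at 36.8% with sgID3 higher and at 29.4% with sgID3 lower, so these counts for the mRNAs are not above the background. With voom, MT-ND1, MT-ND2 and MT-ND3 were called higher and MT-CO1, MT-CYB and MT-ND6 lower, where 19.7% of all genes were called lower.

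Complex I (NADH dehydrogenase), the entry point of electrons from NADH, has 7 subunits encoded here. MT-ND2 (ENSG00000198763, chromosome M, 4470 to 5511, plus strand) measured 4414 and 3782 FPKM in sgCtrl against 5761 and 5021 FPKM in sgID3. Its neighbour MT-ND1 (3307 to 4262) measured 2968 and 2614 FPKM in sgCtrl against 4043 and 3252 FPKM in sgID3. MT-ND3 (10059 to 10404) stood at 2706 and 2248 FPKM against 3529 and 3089 FPKM. At each of these genes the sgID3 libraries were both higher. The ratios of means were 1.32 for MT-ND2, 1.31 for MT-ND1 and 1.34 for MT-ND3. In limma the log2 fold changes were 0.40 ± 0.14 (SE, adjusted p = 0.102), 0.38 ± 0.15 (adjusted p = 0.129) and 0.42 ± 0.14 (adjusted p = 0.0890). By voom the adjusted p was 3.54e-05 for MT-ND2 (range over alternatives 3.54e-05 to 0.779), 0.000263 for MT-ND1 (0.000263 to 0.692) and 4.9e-05 for MT-ND3 (4.9e-05 to 0.625). Within limma the calls also changed with the setting: MT-ND3 passed with a mean of at least 5 FPKM and under quantile normalization, and all 3 genes passed with the replicate number as a block. Quantile normalization gave smaller values for MT-ND1 (0.08) and MT-ND3 (0.16), and MT-ND1 came to 0.22 without sgID3 replicate 1.

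The other complex I mRNAs showed no such gap. MT-ND4L measured 5457 and 4808 FPKM in sgCtrl against 5314 and 4639 FPKM in sgID3. MT-ND4 stood at 8249.5 and 8129.8 FPKM against 8621 and 7231 FPKM, and MT-ND5 at 3140.5 and 2983 FPKM against 3221 and 2764 FPKM. The groups overlapped at all 3 of these genes, with log2 fold changes of -0.04, -0.05 and -0.04, none called in the main setting. Under quantile normalization MT-ND4 turned to 0.06, and MT-ND5 came to -0.30 and was called lower (limma adjusted p = 0.0131, range over alternatives 0.0131 to 0.998). MT-ND6, the only mRNA copied from the light strand, stood at 2962 and 2985 FPKM against 3076 and 2526 FPKM. Its groups overlapped too (log2 fold change -0.09 ± 0.12, SE, limma adjusted p = 0.629, range over alternatives 0.0163 to 0.926). The sources used here do not say whether the libraries keep strand, so reads of MT-ND6 and of antisense RNA from the heavy-strand transcript cannot be told apart. The median over the 7 complex I mRNAs was -0.04.

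Complex III has 1 subunit here, MT-CYB (cytochrome b, chromosome M, 14747 to 15887, plus strand), which is the last mRNA of the heavy-strand map. It measured 4409 and 4467 FPKM in sgCtrl against 4183 and 3462 FPKM in sgID3. Both sgID3 libraries were lower, and the gap between them was wider than that between the nearest libraries of the groups. The ratio of means was 0.861 and the log2 fold change -0.22 ± 0.13 (SE, 95% interval -0.55 to 0.11, limma adjusted p = 0.273), while voom called it lower (-0.29, adjusted p = 0.000131, range over alternatives 0.000131 to 0.861). The limma value moved to -0.36 without sgID3 replicate 1 and to -0.0852 without sgID3 replicate 2.

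Complex IV (cytochrome c oxidase) has 3. MT-CO1, its catalytic subunit, measured 8331 and 8845 FPKM in sgCtrl against 8003 and 7167 FPKM in sgID3. Both sgID3 libraries were lower, by a ratio of means of 0.883 (log2 fold change -0.18 ± 0.13, SE, limma adjusted p = 0.354). By voom it was called lower (-0.25, adjusted p = 0.000182, range over alternatives 0.000182 to 0.953), and without sgID3 replicate 2 its limma value was -0.10. MT-CO2, which receives electrons from cytochrome c, stood at 10339 and 10215 FPKM against 12407 and 10156 FPKM, and MT-CO3 at 10933 and 10569 FPKM against 12542 and 10202 FPKM. At both genes sgID3 replicate 1 was the highest library and sgID3 replicate 2 the lowest, and the log2 fold changes were 0.13 ± 0.15 and 0.07 ± 0.16 (SE), neither called (MT-CO3 turned to -0.02 under quantile normalization). MT-CO2, MT-CO3 and MT-ATP6 had the highest levels per length of all members, between 9488 and 12709 FPKM.

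ATP synthase has MT-ATP6 and MT-ATP8, which are read from a shared mRNA in overlapping frames. MT-ATP6 measured 10195 and 10283 FPKM in sgCtrl against 12709 and 9488 FPKM in sgID3, and MT-ATP8 at 228 and 189 FPKM against 239.6 and 201 FPKM. Groups overlapped at both, with log2 fold changes of 0.10 ± 0.18 and 0.08 ± 0.13 (SE), neither called (MT-ATP8 turned to -0.09 under quantile normalization). MT-ATP6 was listed 44.8 to 54.5 times as high as MT-ATP8 in the 4 libraries, although they share an mRNA. MT-ATP8 (207 nt) is shorter than the cDNA fragments of 370 to 420 bp given in the labels. Whether that lowers its listed level was not tested. MT-ND4L and MT-ND4, the other pair on a shared mRNA, differed by 1.51 to 1.69 times. The overlaps are shown here because a read that lies on both genes cannot be given to either from its sequence, and capitals mark the shared bases: 46 of the MT-ATP8 gene, shared with MT-ATP6, and 7 in the last 60 bases of MT-ND4L, shared with MT-ND4 (GENCODE release 29 transcripts, GRCh38, plus strand, 5′ to 3′).
MT-ATP8: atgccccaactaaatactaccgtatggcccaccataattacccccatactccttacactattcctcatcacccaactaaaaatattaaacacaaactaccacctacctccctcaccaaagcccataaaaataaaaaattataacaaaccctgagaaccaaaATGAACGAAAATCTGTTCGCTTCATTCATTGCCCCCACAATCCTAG
MT-ND4L (last 60 bases): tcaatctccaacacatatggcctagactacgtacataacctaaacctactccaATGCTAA
The way reads on shared bases were assigned is not stated in the sources used here, and neither ratio separated the groups.

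Mitochondrial mRNAs often end in a T or TA that becomes a stop codon only once the poly(A) tail is added. A length that is no multiple of 3 marked 6 such mRNAs: MT-ND1 ends in TA, and MT-ND2, MT-CO3, MT-ND3, MT-ND4 and MT-CYB end in T. Their median log2 fold change was 0.23, against -0.04 for the 7 whose annotated gene ends in a complete stop codon. Of those 7, MT-CO1 ends in AGA and MT-ND6 in AGG. MT-ATP6 (0.10) was counted among the 7 by its gene length. Its last base, at 9207, is also the first base of MT-CO3, so length alone does not settle how its freed mRNA ends. The first group holds the mRNA with the highest value (MT-ND3, 0.42) and also that with the lowest (MT-CYB, -0.22), so values spread more widely within it than the medians lie apart.

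The makeup of the mitochondrial reads differed along the heavy strand. Within the reads of the 37 genes, the rRNAs held 13.4% and 11.2% in sgCtrl and 17.7% and 18.4% in sgID3. MT-ND1 and MT-ND2 together held 9.27% and 8.39% against 10.6% and 10.7%. The mRNAs from MT-CO1 to MT-ND3 held 45.4% and 47.8% against 43.7% and 42.9%. The heavy-strand mRNAs from MT-ND4L to MT-CYB held 29.6% and 30.1% against 25.9% and 25.9%. In both sgID3 libraries the share was higher in the first pair of segments and lower in the last pair, with no overlap between groups. The genes from MT-CO1 to MT-ND3 did not move together. MT-CO1 held 16.0% and 17.8% in sgCtrl against 13.3% and 14.1% in sgID3, and MT-CO3 10.7% and 10.8% against 10.6% and 10.2%. MT-ND3 was higher in sgID3 (1.17% and 1.01% against 1.31% and 1.37%), and MT-CO2, MT-ATP8 and MT-ATP6 overlapped. These segments were chosen after the values were seen, and the shares of a library sum to a whole, so a gain in one appears as a loss in others. The largest counting error among them was 0.0864 percentage points to either side (95% Wilson interval).

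**Figure D2:**
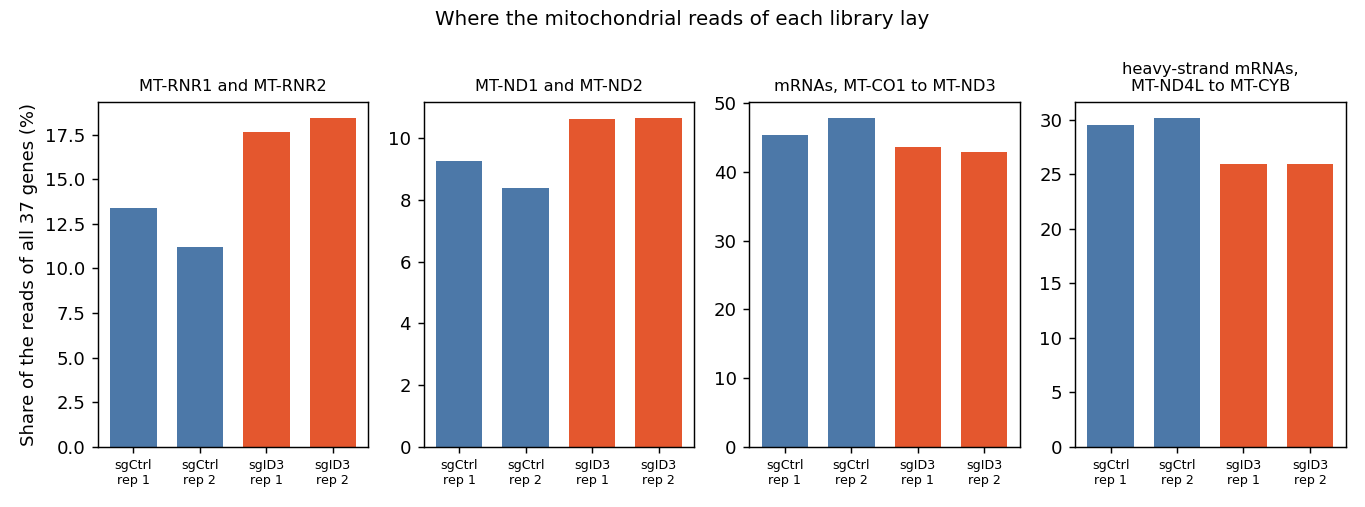
Share of the reads of all 37 genes (percent, bars from 0, a separate scale in each panel) held by 4 segments of the heavy strand in each library, blue for sgCtrl and orange for sgID3. The rRNA and MT-ND1 with MT-ND2 panels show taller orange bars (17.7% and 18.4% against 13.4% and 11.2% for the rRNAs), and the panels from MT-CO1 onward show shorter ones. The MT-CO1 to MT-ND3 panel pools genes that differ: in both sgID3 libraries the MT-CO1 share was lower and the MT-ND3 share higher.

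Ratios within a library do not depend on its scaling. Set against MT-CYB at the far end, MT-RNR1 stood at 0.473 and 0.347 in sgCtrl and at 0.959 and 1.02 in sgID3, and MT-RNR2 at 1.28 and 1.02 against 1.93 and 2.05. MT-ND1 stood at 0.673 and 0.585 of MT-CYB against 0.966 and 0.939, MT-ND2 at 1.00 and 0.847 against 1.38 and 1.45, and MT-ND3 at 0.614 and 0.503 against 0.844 and 0.892. These ratios were higher in both sgID3 libraries, by 2.42 times for MT-RNR1, 1.73 for MT-RNR2, 1.51 for MT-ND1, 1.53 for MT-ND2 and 1.55 for MT-ND3. MT-CYB has the lowest log2 fold change of the mRNAs, so ratios to it tend to be higher in sgID3 for any gene. Of the 11 other heavy-strand mRNAs, 10 had a higher ratio to MT-CYB in both sgID3 libraries, and MT-CO1 overlapped (1.89 and 1.98 against 1.91 and 2.07). The genes from MT-CO2 to MT-CO3 had ratios 1.27 (MT-CO2), 1.23 (MT-ATP8), 1.25 (MT-ATP6) and 1.23 (MT-CO3) times as high, and those after MT-ND3 1.13 (MT-ND4L), 1.12 (MT-ND4) and 1.14 (MT-ND5) times. The 1.55 of MT-ND3 was above the values on either side of it, a difference that was not tested. MT-ND3 is 346 nt long, shorter than the cDNA fragments of 370 to 420 bp given in the labels.

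Over the 14 heavy-strand rRNAs and mRNAs, the start position and the log2 fold change had a Pearson r of -0.79 and a Spearman rho of -0.72. This is a description: neighbouring genes share transcripts and all 14 share the same 4 libraries. Without the rRNAs r was -0.59 (rho -0.55, 12 mRNAs), and without MT-ND1 and MT-ND2 as well it was -0.25 (rho -0.39, 10 mRNAs), so the relation rests mostly on the genes nearest the promoters. Over the same 14 genes r was -0.13 against the mean log2 FPKM and -0.08 against gene length. The sgCtrl libraries differed from each other along the same axis: for replicate 2 against replicate 1, r over the 14 genes was 0.57 (rho 0.49), with differences of -0.43 at MT-RNR1, -0.30 at MT-RNR2 and 0.02 at MT-CYB. In sgID3 the same comparison gave r of -0.23 (rho -0.28).

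**Figure D3:**
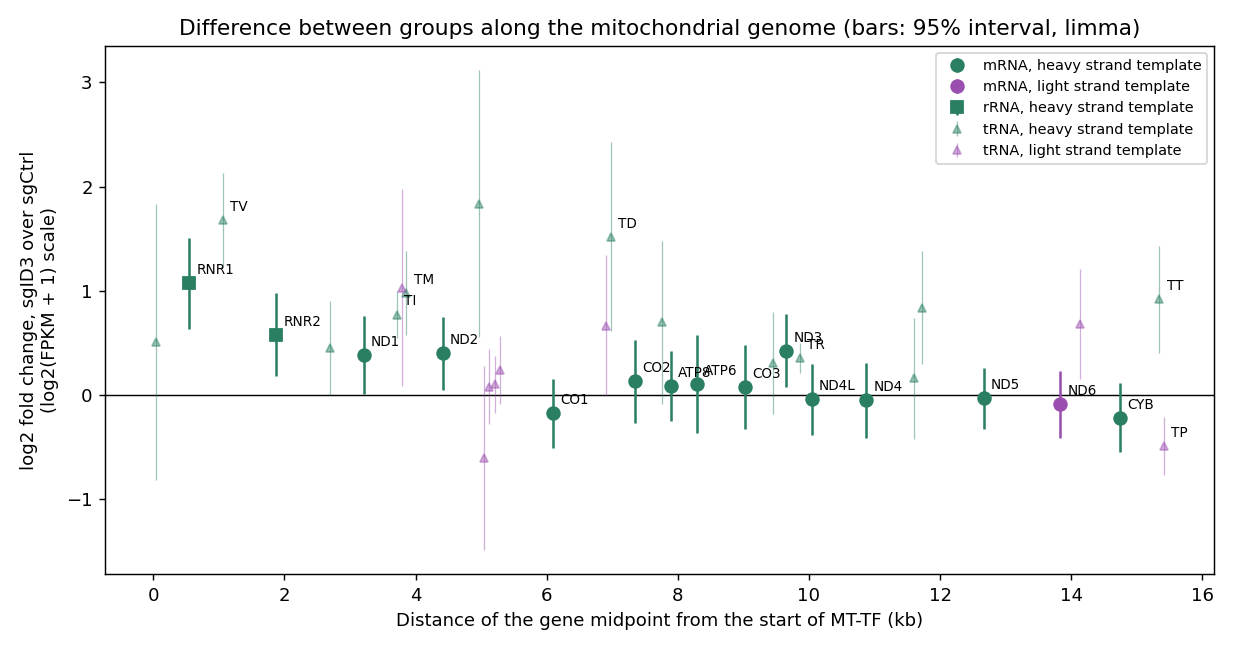
Log2 fold change (sgID3 over sgCtrl, on the log2(FPKM + 1) scale) of the 36 tested members against the distance of the gene midpoint from the start of MT-TF in kb, with 95% intervals from limma, squares for rRNAs, circles for mRNAs, triangles for tRNAs, green for heavy-strand and purple for light-strand templates. MT-RNR1 (1.07) and MT-RNR2 (0.58) stand highest among the rRNAs and mRNAs at the left, and MT-CYB (-0.22) lowest at the right.

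Reads at tRNA genes need care. All 22 genes are 59 to 75 nt long, while the labels give cDNA fragments chosen at 370 to 420 bp, longer than any of them, and mature tRNAs have no poly(A) tail to be captured by. Whether reads counted at a tRNA gene come from longer RNAs that include it was not tested. The mRNA genes MT-ND3 (346 nt), MT-ND4L (297 nt) and MT-ATP8 (207 nt) are also shorter than these fragments, and the same was not tested for them. Together the 22 tRNA genes held between 0.0305% and 0.0365% of all reads, with overlapping groups. Their levels ran from 0 or 1 read at MT-TS2 to 2285 reads at MT-TC. Of the 22, MT-TS2 was under the filter, 18 had a mean of at least 10 reads, and MT-TW, MT-TA and MT-TS1 were tested on 1 to 14 reads per library.

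Of the 21 tested tRNA genes, 6 rose in sgID3 (MT-TV, MT-TI, MT-TM, MT-TD, MT-TR and MT-TT), 1 fell (MT-TP) and 14 did not pass limma. Over all tested genes 12.3% were called higher and 8.87% lower. The sgID3 libraries were both above at 13 of the 21 and both below at 2, where 36.8% and 29.4% of all tested genes were so placed. The median log2 fold change was 0.66, beside 0.03 over all tested genes. All 6 that rose by limma are copied from the heavy strand (6 of 13 tested), and of 8 light-strand tRNA genes 0 rose and 1 fell. This split depended on the fit. Of those 6, voom called only MT-TV and MT-TM higher, along with MT-TL1 of the heavy strand and MT-TE of the light strand. The medians by strand were 0.77 for heavy and 0.17 for light, a difference that was not tested. Strand here is that of the annotated gene: without stranded counts, reads at a light-strand tRNA gene and reads of the heavy-strand transcript opposite it cannot be told apart. As a background of similarly short genes, 554 noncoding genes under 300 nt outside chromosome M were tested and 81 called, 33 of them higher, at a median of 3.5 reads. The 7 called tRNA genes are shown with MT-TC, the tRNA gene with the most reads, each with its anticodon in capitals (GENCODE release 29, GRCh38, chromosome M, 5′ to 3′ on the strand of the gene, as DNA). They stand at 1602 to 1670 (MT-TV), 4263 to 4331 (MT-TI), 4402 to 4469 (MT-TM), 7518 to 7585 (MT-TD), 10405 to 10469 (MT-TR) and 15888 to 15953 (MT-TT) on the plus strand. On the minus strand stand MT-TP (15956 to 16023) and MT-TC (5761 to 5826).
MT-TV: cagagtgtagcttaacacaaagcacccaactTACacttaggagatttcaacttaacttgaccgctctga
MT-TI: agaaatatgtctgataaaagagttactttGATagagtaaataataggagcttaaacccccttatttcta
MT-TM: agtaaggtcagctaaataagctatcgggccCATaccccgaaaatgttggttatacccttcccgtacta
MT-TD: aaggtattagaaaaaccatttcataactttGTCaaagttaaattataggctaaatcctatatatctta
MT-TR: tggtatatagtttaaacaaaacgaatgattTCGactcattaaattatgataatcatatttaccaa
MT-TT: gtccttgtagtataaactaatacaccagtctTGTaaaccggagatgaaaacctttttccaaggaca
MT-TP: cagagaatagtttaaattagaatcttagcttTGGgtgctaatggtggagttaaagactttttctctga
MT-TC: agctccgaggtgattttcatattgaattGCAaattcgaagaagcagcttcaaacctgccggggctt
MT-TT and MT-TP, which lie next to each other on opposite strands, moved in opposite directions.

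MT-TV, the valine tRNA between the rRNAs, had the largest called difference among members. It had 130 and 99 reads (114 and 83.1 FPKM) in sgCtrl and 359 and 320 reads (343 and 288 FPKM) in sgID3. The sgID3 libraries were far above, 3.20 times as high in mean FPKM. This gave a log2 fold change of 1.68 ± 0.17 (SE, 95% interval 1.24 to 2.13, limma adjusted p = 0.00902), and leaving out 1 library gave 1.46 to 1.91 with adjusted p of 0.0451 to 0.0712, past the threshold only without sgCtrl replicate 1. Set against its upstream neighbour MT-RNR1, MT-TV stood at 0.0547 and 0.0535 of its FPKM in sgCtrl, against 0.0855 and 0.0812 in sgID3. MT-TV thus differed by more than MT-RNR1, and the rRNA on its other side by less. In human mitochondrial ribosomes the valine tRNA is also a structural part of the large subunit.

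The isoleucine and methionine tRNAs lie between MT-ND1 and MT-ND2, with the glutamine tRNA on the opposite strand between them. MT-TI had 28 and 32 reads in sgCtrl against 50 and 46 in sgID3 (log2 fold change 0.77 ± 0.09, SE, limma adjusted p = 0.0108, 0.000498 to 0.105 over alternatives). MT-TM, the tRNA for both initiator and internal methionines, had 25 and 28 against 56 and 43 (0.97 ± 0.16, adjusted p = 0.0196, range 0.00123 to 0.102). The groups were apart at these genes, and voom called MT-TM (adjusted p = 0.0449) but not MT-TI (0.105). MT-TQ had 18 and 8 reads against 25 and 23, also apart (1.03 ± 0.37, adjusted p = 0.110), and shares 3 bases with MT-TI. Just before MT-ND1 lies MT-TL1, a leucine tRNA, with 304 and 225 reads against 341 and 320. Its groups were apart by less than the sgCtrl pair differed (0.45 ± 0.18, limma adjusted p = 0.136, voom 0.0335, range 0.0335 to 0.386).

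Further along, MT-TD, the aspartate tRNA before MT-CO2, had 4 and 10 reads in sgCtrl against 20 and 18 in sgID3 (log2 fold change 1.52 ± 0.35, SE, limma adjusted p = 0.0429, range 0.00477 to 0.174). MT-TR, the arginine tRNA after MT-ND3, had 71 and 79 reads against 85 and 93 (0.36 ± 0.06, adjusted p = 0.0188, range 0.0038 to 0.350). MT-TT, the threonine tRNA after MT-CYB, had 19 and 20 against 42 and 29 (0.92 ± 0.20, adjusted p = 0.0372, range 0.00399 to 0.154). All 3 were higher in both sgID3 libraries, and voom, which weighs the low read numbers, called none of them (adjusted p of 0.0511, 0.350 and 0.109). The SE by voom was 0.23 for MT-TR and 0.34 for MT-TI, against 0.06 and 0.09 by limma. At such read numbers the limma SE is therefore not a full measure of precision. With 1 library left out, MT-TT passed limma without sgID3 replicate 2 and lost its call otherwise. MT-TM too passed only without that library among such fits, and MT-TI, MT-TD and MT-TR passed in none. MT-TD moved to 0.99 without sgCtrl replicate 1, and quantile normalization moved MT-TR to 0.19 and ended the calls of MT-TR, MT-TD and MT-TT.

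Of the remaining heavy-strand tRNA genes, MT-TL2 (17 and 11 reads in sgCtrl, 23 and 24 in sgID3) and MT-TK (12 and 6 against 13 and 14) were higher in both sgID3 libraries without passing limma (adjusted p = 0.0506 and 0.166). Without sgCtrl replicate 1, limma called both, and MT-TQ as well. MT-TG had 56 and 56 against 76 and 54, and MT-TH had 182 and 125 against 169 and 143. MT-TF, the gene nearest the promoters, had 15 and 5 reads against 9 and 16. The groups overlapped at MT-TG, MT-TH and MT-TF, so the first gene of the heavy strand showed no detectable difference at this depth.

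Light-strand tRNA reads were concentrated at a few genes. MT-TN, MT-TC, MT-TY and MT-TP, the tRNAs for asparagine, cysteine, tyrosine and proline, held 81.6% and 83.6% of all tRNA gene reads in sgCtrl and 73.5% and 74.7% in sgID3. MT-TC had 2285 and 2125 reads in sgCtrl against 2226 and 2138 in sgID3. Its groups overlapped in reads (log2 fold change in FPKM 0.10 ± 0.11, SE, limma adjusted p = 0.542), and quantile normalization turned its value to -0.27 (adjusted p = 0.0132, range over alternatives 0.0132 to 0.953). MT-TN had 796 and 636 against 696 and 693 reads, and MT-TY 489 and 420 against 516 and 471, with overlapping reads at both (MT-TN turned to -0.09 under quantile normalization). The cluster of MT-TA, MT-TN, MT-TC and MT-TY stands side by side on the same strand, yet MT-TA had only 6 and 6 against 5 and 2 reads. The level therefore dropped sharply between direct neighbours in all 4 libraries.

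MT-TP was the 1 member that limma called lower in the main setting. It had 988 and 964 reads (879 and 821 FPKM) in sgCtrl and 679 and 605 reads (658 and 553 FPKM) in sgID3. Both sgID3 libraries were lower, at 0.713 of the sgCtrl mean (850.0 ± 41.0 against 606 ± 74.7 FPKM, SD, n = 2 each). This gave a log2 fold change of -0.49 ± 0.11 (SE, 95% interval -0.77 to -0.22, limma adjusted p = 0.0368, voom 1.25e-05, range 1.25e-05 to 0.209), and leaving out 1 library gave -0.62 to -0.37 with the call lost each time. MT-TP is the first gene of the light-strand transcript and lies opposite the end of the heavy-strand map, next to MT-TT and MT-CYB. It stood at 50.5 and 46.8 times MT-TT in sgCtrl and at 15.7 and 20.2 times in sgID3. The next light-strand tRNA, MT-TE for glutamate, went the other way with 135 and 102 reads against 196 and 156 (0.68 ± 0.20, limma adjusted p = 0.0752, voom 0.0132, range 0.0113 to 0.252). MT-TE lies between MT-TP, which was lower, and MT-ND6, whose groups overlapped.

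**Figure D4:**
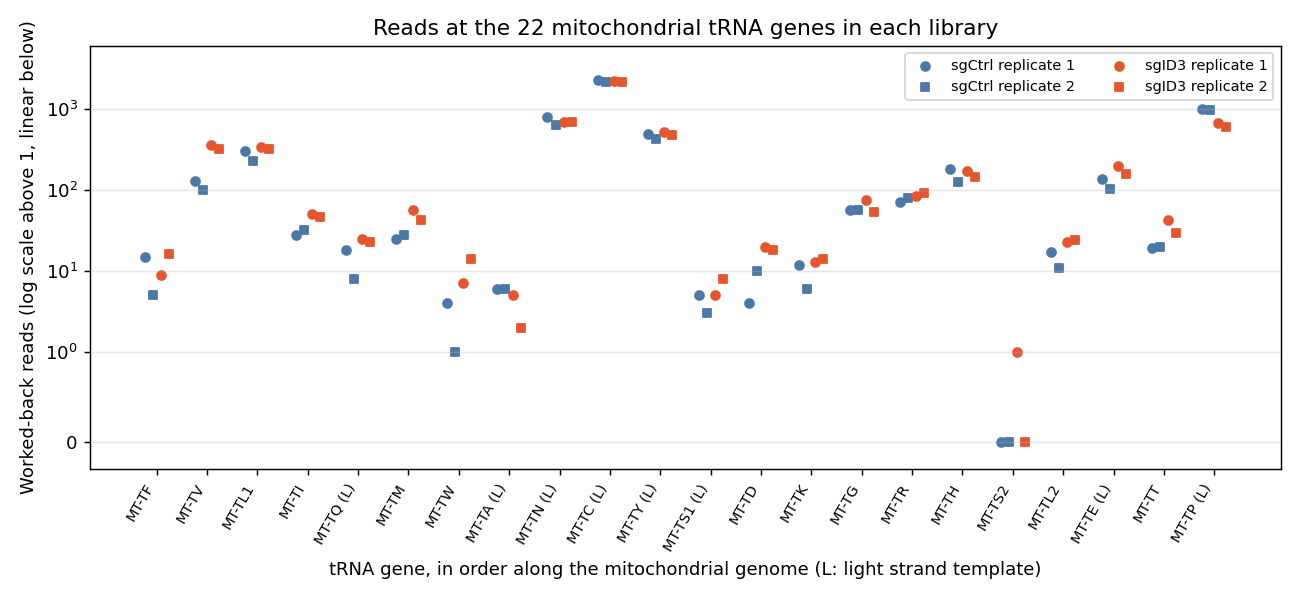
Worked-back reads (log axis above 1, linear below) at the 22 tRNA genes in genome order, 1 point per library, blue for sgCtrl and orange for sgID3, with (L) marking light-strand templates. MT-TV shows the widest gap among genes with many reads (130 and 99 against 359 and 320), MT-TP the opposite order (988 and 964 against 679 and 605), and MT-TC the most reads.

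Near copies of mitochondrial DNA in the nuclear genome can take reads from the genes they resemble. MTND5P11 and MTND4P26 had 1 to 23 reads per library and were under the filter on low values. The 3 that were tested lie close together on chromosome 1 (GRCh38). MTATP6P1 (633696 to 634376) is 98.5% identical to MT-ATP6, with 10 mismatches over 681 bases, and held 4.13% to 4.93% of the reads of the pair. MTND2P28 (629640 to 630683) is 98.2% identical to MT-ND2 with 17 mismatches and held 3.42% to 4.25%, and MTCO1P12 (631074 to 632616) is 98.6% identical to MT-CO1 with 20 mismatches and held 0.188% to 0.235%. None was called (log2 fold changes 0.20, 0.27 and -0.16, limma adjusted p = 0.130, 0.264 and 0.232), and at all 3 the groups' shares overlapped. In FPKM the sgID3 libraries were both higher at MTATP6P1 and MTND2P28 and both lower at MTCO1P12. Over all tested genes, 36.8% and 29.4% were so placed. How reads that match both places were counted is not stated in the sources used here, so how far such reads move these mRNA levels is not known.

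The nuclear genes that serve these transcripts were listed by role, and their called members were nearly all higher in sgID3. Over all tested genes 12.3% rose and 8.87% fell, with a median of 0.03, and the lists below are read against that. This background depends on the level of the genes. In the fit limited to a mean of at least 5 FPKM, 2033 of 7596 genes were called higher and 1105 lower, with a median of 0.07. The lists were not set against genes of similar level, so a share above 12.3% need not be particular to a list. Transcription and nucleoid factors had 9 of 22 tested genes that rose (40.9%) and 0 that fell (median 0.20). TFAM, which packages mitochondrial DNA and bends it at promoters, stood at 13.6 and 12.3 FPKM against 15.6 and 14.5 FPKM, and TFB2M, which helps open the promoter, at 15.8 and 13.4 FPKM against 15.5 and 16.7 FPKM. Neither passed (0.20, adjusted p = 0.112, and 0.13, adjusted p = 0.348). POLRMT, the mitochondrial RNA polymerase, stood at 29.8 and 29.8 FPKM against 36.1 and 39.5 FPKM and rose by 0.33 ± 0.06 (log2, SE, limma adjusted p = 0.0262). PPRC1, a coactivator related to PGC-1, ATAD3B, a nucleoid-linked ATPase, and LONP1, the matrix protease that degrades TFAM, rose by 0.44, 0.45 and 0.32 (adjusted p = 0.0123, 0.0129 and 0.0187).

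Among genes for RNA processing, polyadenylation and decay, 7 of 25 rose (28%) and 0 fell (median 0.17). SLIRP, which with LRPPRC binds and stabilizes mitochondrial mRNAs, stood at 12.4 and 9.64 FPKM against 17.6 and 17.6 FPKM and rose by 0.64 (adjusted p = 0.0258). Its partner LRPPRC stood at 39.9 and 38.6 FPKM against 42.6 and 39.8 FPKM, with a difference of 0.07 that did not pass (adjusted p = 0.441) and turned to -0.07 under quantile normalization. FASTKD2 and DDX28, which act on the 16S rRNA and the large ribosomal subunit, rose by 0.51 and 0.63 (adjusted p = 0.0168 and 0.0155). Of 24 RNA modification genes 3 rose (12.5%, near the share over all genes) and 0 fell (median 0.12): MRM1, which methylates a ribose of the 16S rRNA, PUS1, a tRNA pseudouridine synthase, and CDK5RAP1, which methylthiolates mitochondrial tRNAs, by 0.52, 0.32 and 0.36 (adjusted p = 0.0159, 0.0236 and 0.0242).

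Of 21 genes for replication and upkeep of mitochondrial DNA, 5 rose (23.8%) and 1 fell (median 0.14). MGME1, an exonuclease, FEN1, a flap endonuclease, and POLQ, a DNA polymerase that also works in the nucleus, rose by 0.40, 0.40 and 0.41 (adjusted p = 0.0117, 0.0206 and 0.0215). The gene that fell was RRM2B, a ribonucleotide reductase subunit, by 0.45 on the log2 scale (adjusted p = 0.0221), named after its value was seen. The reads do not measure the amount of mitochondrial DNA.

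Nuclear subunits of the complexes that hold the 13 encoded proteins rose at 13 of 71 tested genes (18.3%) and fell at 0 (median 0.18). By complex, 9 of 36 rose in complex I (25%), 2 of 9 in complex III (22.2%), 1 of 11 in complex IV (9.09%) and 1 of 15 in ATP synthase (6.67%). Examples are NDUFC2 and NDUFS6 of complex I (0.50 and 0.42, adjusted p = 0.0158 and 0.0372), CYC1 and UQCRFS1 of complex III (0.33 and 0.35, adjusted p = 0.0318 and 0.0403), COX7B of complex IV (0.32, adjusted p = 0.0216) and ATP5F1E of ATP synthase (0.40, adjusted p = 0.0389). Proteins of the mitochondrial ribosome, partners of MT-RNR1 and MT-RNR2, rose at 26 of 77 tested genes (33.8%) and fell at 0 (median 0.20). After scaling to the summed reads the list medians remained above 0, at 0.14 for transcription, 0.10 for processing, 0.06 for modification, 0.08 for replication, 0.11 for the subunits and 0.14 for the ribosomal proteins. Adjusted p-values in these lists are from limma over all 13608 genes. With 1 library left out, SLIRP passed in 1 of the 4 fits (without sgCtrl replicate 1, adjusted p = 0.0451, range over alternatives 2.31e-05 to 0.124) and the other nuclear genes named as risen passed in none. Quantile normalization ended the calls of POLRMT (0.22), LONP1 (0.18), NDUFS6 (0.31), CYC1 (0.16) and UQCRFS1 (0.24) and moved FEN1 to 0.26.

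**Figure D5:**
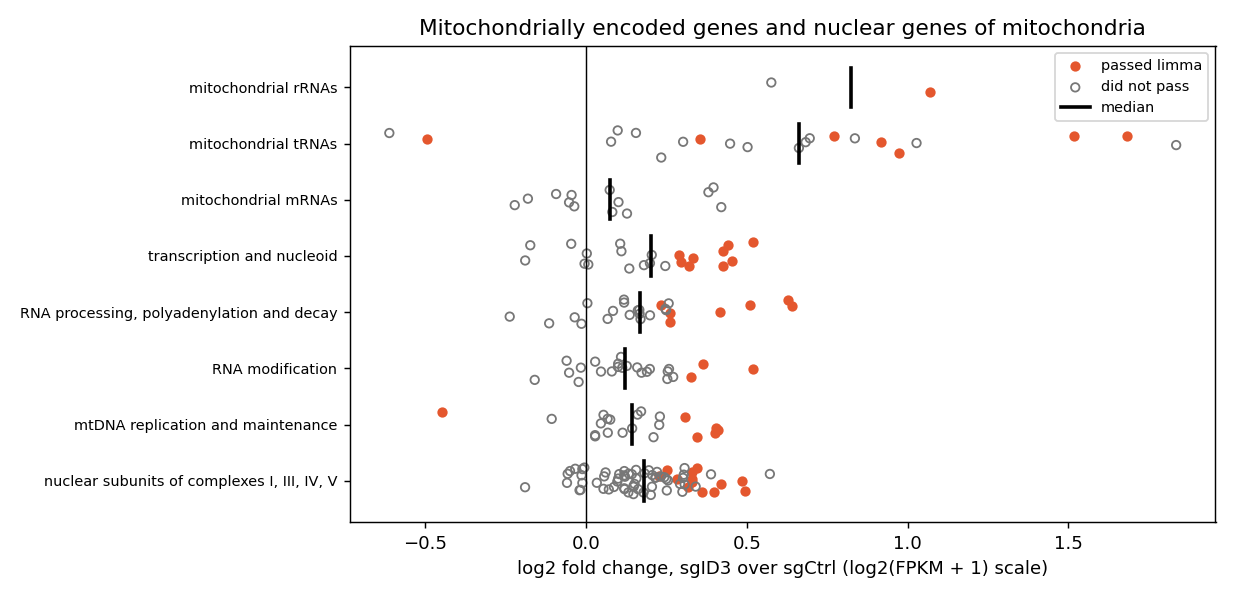
Log2 fold change (sgID3 over sgCtrl, log2(FPKM + 1) scale) of each tested gene of the mitochondrial rRNAs, tRNAs and mRNAs and of 5 nuclear lists, filled orange where limma called the gene and open where not, with a black bar at the median. The rRNA and tRNA bars stand furthest right (0.82 and 0.66), the mRNA bar near 0 (0.07), and the nuclear lists between 0.12 and 0.20.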

How the data were processed

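RNA from 4 HCT116 libraries (2 sgCtrl, 2 sgID3) was captured on poly-T beads and primed with random hexamers, per the labels' protocols. The authors deposited FPKM per gene. The submitters' processing notes list edgeR 3.22.5, DESeq2 1.20.0, featureCounts 1.5.0-p3, StringTie 1.3.3b, HISAT2 2.0.5 and the build hg19. The sources used here do not say which tool made the deposited FPKM, which strand setting was used or how multiply matching reads were handled. The gene identifiers are those of GENCODE release 29, which annotates GRCh38, and coordinates, types and sequences were taken from it. All 58735 identifiers matched.

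FPKM times exonic length gave whole multiples of a single step within 0.02 reads, from which reads were worked back. They summed to 15929150 and 16258079 (sgCtrl) and to 15349866 and 15872240 (sgID3), while the FPKM imply totals of 16530203, 17266761, 15165186 and 16093443. A single tRNA gene with few reads is therefore imprecise, and an mRNA or rRNA with at least 669 reads is limited by the spread between libraries. The implied totals were 1.04 and 1.06 times the summed reads in sgCtrl, and 0.988 and 1.01 times in sgID3. Fold changes in the deposited FPKM are thus higher than those scaled to the summed reads. The median over all tested genes was 0.03 in the main setting and -0.03 with the summed reads.

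Groups were compared with limma 3.58.1 (R 4.3.3; lmFit, eBayes with trend) on log2(FPKM + 1), two-sided, over genes whose mean was 1 FPKM or more, with Benjamini-Hochberg adjustment. Only the 2 groups entered, with no covariates. The scale understates changes of low genes. The script was tested on simulated data. An exact permutation test was not used, since with 2 against 2 its smallest p is 0.333. Alternatives were no filter, a mean of at least 5 FPKM, pseudocounts of 0.1 and 0.5, 4 other scalings, eBayes without trend, a replicate block, leaving out each library in turn, and limma-voom fitted to the reads.

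Named were all 37 genes (tRNAs by values at a mean of at least 10 reads), ID3, TFAM, POLRMT, TFB2M, LRPPRC, up to 3 called members of each of 8 nuclear lists with the smallest adjusted p (all 165 listed genes matched), and nuclear copies with a mean of at least 10 reads. The tRNA genes under that mean are named with their read range. The members and lists were chosen with earlier results of these data known.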

Additional observations from a re-analysis of the deposited data

How the results depend on the processing

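limma called 2886 of all genes in the main setting, 420 without a filter on low values, 1789 with eBayes without trend, 4644 in a voom fit of the reads, and 0 to 399 with 1 library left out. Of the mRNAs it called 0 (3 at an unadjusted p under 0.05), against 1 with a mean of at least 5 FPKM, 3 under quantile normalization, 6 with voom, and 0 with any library left out (0 to 2 unadjusted). Of the rRNAs it called 1, against 0 without a filter (0 unadjusted), 2 with a mean of at least 5 FPKM, 2 with voom, and 0 with any library left out (1 or 2 unadjusted). Of the tRNAs it called 7, against 0 without a filter (10 unadjusted), 12 with a mean of at least 5 FPKM, 4 without trend, and 0 to 4 with 1 library left out. The labels number the replicates 1 and 2 in each group, and the deviations of same-numbered libraries correlated at 0.0332, which does not show that the numbers pair them. With the replicate block limma called 2708 of all genes, 3 mRNAs, 2 rRNAs and 11 tRNAs. The fit limited to a mean of at least 5 FPKM called 3138 of its 7596 genes. That is a larger share than the 2886 of 13608 in the main setting, so its added member calls came with more calls in general.

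The fold changes of MT-RNR1, MT-RNR2, MT-TV, MT-ND1, MT-ND2, MT-ND3, MT-CO1, MT-CYB and MT-TP kept their sign in every setting run, though not their size: quantile normalization took MT-ND1 from 0.38 to 0.0796, MT-ND3 from 0.42 to 0.16 and MT-RNR2 from 0.58 to 0.30. Quantile normalization turned MT-TN (-0.0929), MT-TC (-0.27), MT-ATP8 (-0.0924), MT-CO3 (-0.0182), MT-TH (-0.0168), MT-ND4 (0.0605) and LRPPRC (-0.0675). LRPPRC also came to -0.000189 with the summed reads and -0.000324 with voom. With 1 library left out, MT-TF (0.50 in the main setting, on 5 to 16 reads) ranged from -0.22 to 1.22. Values nearer 0 in the main setting also crossed it: MT-TN -0.12 to 0.27, MT-CO2 -0.0171 to 0.27, MT-ATP8 -0.0535 to 0.22, MT-ATP6 -0.11 to 0.31, MT-CO3 -0.0754 to 0.22, MT-ND4L -0.14 to 0.0529, MT-ND4 -0.18 to 0.0741, MT-TH -0.14 to 0.46, MT-ND5 -0.15 to 0.0735 and MT-ND6 -0.24 to 0.0492. The cause was not tested in any of these. Depth limits the tRNA genes with few reads.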
